A study of Homo sapiens with 54 samples.

Results

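The 10 genes described here belong to the Notch pathway: the receptors NOTCH1, NOTCH2 and NOTCH3, the ligands JAG1, JAG2 and DLL1, and the target genes HES1, HES4, HEY1 and NRARP. They were taken by symbol, and all 10 (the members) were found among the 33119 genes of each count table. The study compared established human cancer cell lines given a kinase inhibitor with control cells of the same line. Sequencing read the 3′ ends of mRNA in 54 libraries, which form 18 groups of 3. Set 1 (12 libraries) held the colorectal lines SW48 and SW620, each as control and with trametinib, an inhibitor of the kinase MEK. Set 2 (42 libraries) held SW48 and SW620 as control, with trametinib and with palbociclib, which blocks CDK4 and CDK6, kinases that drive cells out of G1. It also held the stomach lines NCI-N87 and MKN-45 and the breast lines BT-20 and BT-474, each as control and with afatinib, an inhibitor of the ERBB receptor family. All lines were grown in DMEM with serum and antibiotics. The labels give no dose, no time and no vehicle for the controls, and nothing in them says that replicates are separate cultures, so the p-values measure the spread between these libraries, which may be technical. A cell line models the tumour cells of 1 cancer, grown without the stroma of a tissue.

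Notch receptors sit in the membrane and are activated by ligands of the Jagged and Delta-like families on a neighbouring cell. Ligand binding lets ADAM proteases and then γ-secretase cut the receptor, and the freed intracellular part enters the nucleus, where it joins the DNA-binding protein RBPJ and a Mastermind coactivator to switch on targets such as HES1. In the gut epithelium this pathway holds progenitor cells and directs them away from secretory fates.

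The promoters of HES1, HES4 and NRARP are shown because the test results of these targets were not alike in SW48. With trametinib in set 2, HES1 and NRARP fell, while HES4 did not pass the test. In set 1 only NRARP of these passed (log2 fold change -0.71, with -0.04 for HES1 and -0.50 for HES4). The difference between the genes was not tested. The sequences are the 250 bases before the RefSeq transcription start (build GRCh38.p14), read 5′ to 3′ on the strand of the gene, and capitals mark TGGGAA, the core of the sequence that RBPJ recognises. HES1 lies on the plus strand at chr3:194135898-194136147, HES4 on the minus strand at chr1:1000098-1000347 and NRARP on the minus strand at chr9:137302272-137302521.
HES1: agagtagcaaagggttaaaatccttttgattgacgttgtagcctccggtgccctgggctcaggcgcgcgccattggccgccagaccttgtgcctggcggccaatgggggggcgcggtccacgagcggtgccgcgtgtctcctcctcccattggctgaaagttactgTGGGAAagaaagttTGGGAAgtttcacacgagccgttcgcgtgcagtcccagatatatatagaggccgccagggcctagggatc
HES4: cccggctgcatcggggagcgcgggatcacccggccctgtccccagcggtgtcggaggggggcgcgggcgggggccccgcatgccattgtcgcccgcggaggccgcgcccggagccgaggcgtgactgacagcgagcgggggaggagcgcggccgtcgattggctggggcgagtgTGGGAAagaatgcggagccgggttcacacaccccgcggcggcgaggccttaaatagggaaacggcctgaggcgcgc
NRARP: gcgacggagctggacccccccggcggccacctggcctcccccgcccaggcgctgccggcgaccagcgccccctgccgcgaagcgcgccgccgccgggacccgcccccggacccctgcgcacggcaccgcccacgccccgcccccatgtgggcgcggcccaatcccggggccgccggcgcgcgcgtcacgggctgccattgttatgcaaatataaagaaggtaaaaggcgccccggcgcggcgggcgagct
The RefSeq table held a promoter for 8 of the 10 members, and DLL1 and HEY1 were without an entry. TGGGAA, searched on both strands of the whole table window (300 bases, of which 50 follow the start), occurred 2 times in HES1, beginning 84 and 70 bases before the start, and 1 time in HES4, beginning 76 bases before it. The windows of NRARP, NOTCH1, NOTCH2, NOTCH3, JAG1 and JAG2 held no match. Of all 35116 promoters in the table, 24.0% held at least 1 match and 3.8% held 2 or more. The N-box CACNAG, a sequence bound by HES proteins, had 4 matches in HES1, 2 overlapping ones in NOTCH1 and 1 each in NOTCH2, NOTCH3 and NRARP, and 38.0% of all promoters held it. These matches describe the letters in the windows and are not measured binding sites.

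Levels are counts scaled to a common library size (CPM) after TMM scaling within a set, given for each library in the order of the replicate numbers. They are not corrected for length and are compared only within a gene. Library totals ran from 4063382 to 10622670 counts in set 1 and from 3401565 to 12806042 in set 2. Levels of line markers in the set 2 controls ran with the labels for ERBB2 in NCI-N87 (1918 CPM) and BT-474 (1151 CPM), MET in MKN-45 (1245 CPM), EGFR in BT-20 (436 CPM) and the intestinal factor CDX2 in SW48 (96.8 CPM) and SW620 (34.2 CPM), but the intestinal genes CDX1 and VIL1 were at 0 and 0.20 CPM in SW48. Some genes were picked as high in the set 2 controls of 1 line and near 0 in those of the library's own line. They are called the genes of that other line here, though levels in the remaining lines were not part of the choice. Their summed levels reached 21.5% of the MKN-45 level in SW48 trametinib replicate 2 of set 1. They were at 14% and 12.1% of the BT-20 level in SW48 trametinib replicate 1 and control replicate 1 of set 1. In SW620 control replicate 3 of set 1 they were at 9.59% of the MKN-45 level. They reached at most 4.23% in set 2, but the choice itself makes the set 2 controls low. Reads of another line and a gene's own difference between the sets were not told apart. The median gene of these lists was at 1.80% or less. Libraries of the set 1 SW620 controls correlated with each other at 0.861 to 0.957 (log2 CPM, Pearson), and those of the SW48 controls of set 2 at 0.990 to 0.991. Of 6 markers of leukocytes, endothelium and stroma, CD3E and PECAM1 reached at most 1 and 9 counts in any library, PTPRC at most 5.70 CPM and PDGFRB at most 3.60 CPM, while CDH5 reached 16.7 CPM in BT-20 and DCN 28.2 CPM in SW48.

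The level of each receptor differed between the lines. In the set 2 controls, NOTCH1 was read in all 6 lines, NOTCH2 in 5 at 9.91 CPM or more, and NOTCH3 was high in the breast lines and near or at 0 in the colorectal lines. All 10 members differed between the 6 lines (edgeR quasi-likelihood test over the control groups), and so did 97.1% of the 15211 genes tested, so a difference between lines was the rule. NOTCH1 was at 31.4, 33.4 and 36.6 CPM in MKN-45 and at 25.7, 34.8 and 31.5 CPM in SW48, and these ranges overlap. SW620 followed (24.9 ± 2.40 CPM, SD, n = 3), with a range that also overlaps that of SW48. NCI-N87 (19.7 ± 2.51), BT-474 (14.8 ± 2.29) and BT-20 (11.8 ± 2.26) came below it, with overlap between NCI-N87 and BT-474 and between BT-474 and BT-20.

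NOTCH2 kept the 6 lines apart without overlap of neighbours. BT-20 was highest at 80.7, 68.6 and 74.8 CPM, and then came BT-474 at 51.8 ± 2.26, SW48 at 32.1 ± 2.12, NCI-N87 at 24.3 ± 4.60 and MKN-45 at 9.91 ± 1.69 CPM (SD, n = 3). SW620 had only 3, 3 and 1 counts, or 0.253 CPM on average. In the SW620 controls of set 1 NOTCH2 was at 2.73 CPM on average (19 to 36 counts). NOTCH2 has near-identical partial copies in the genome, so reads may be lost or shared among them; the copy listed as NOTCH2NL had 0 to 7 counts in every library of either set. NOTCH3 was at 23.1, 22.1 and 25.8 CPM in BT-474 and at 21.6, 18.1 and 18.1 CPM in BT-20. The remaining lines were lower in order: NCI-N87 (9.51 ± 0.926), MKN-45 (4.58 ± 0.634) and SW48 (1.05 ± 0.387 CPM). SW620 had no NOTCH3 count in any of the 3 control libraries of set 2, which allows a level of up to 0.0901 CPM over the group (3 counts, counting error only).

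The ligands followed another order. JAG1 was highest in MKN-45 at 82.6, 95.3 and 87.3 CPM and lowest in BT-474 at 3.93, 6.92 and 6.30 CPM. SW48 stood second at 52.2 ± 1.45 CPM, and the ranges of SW620 (36.2 ± 2.44), NCI-N87 (31.6 ± 6.36) and BT-20 (26.6 ± 2.50) overlap in that order. JAG2 was highest in SW48 at 166, 184 and 171 CPM, then in SW620 at 110, 97.6 and 110 CPM, and lay between 40.1 and 58.5 CPM in all libraries of the other 4 lines. DLL1 was at 10.8, 17.4 and 17.8 CPM in SW48 and at 5.53, 7.20 and 4.38 CPM in BT-474. It was low in MKN-45 (1.77 ± 0.328) and BT-20 (1.21 ± 0.573), whose ranges overlap. NCI-N87 and SW620 had no DLL1 count in any control library of set 2, which allows up to 0.154 and 0.0901 CPM over the group.

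Among the targets, SW48 was highest for HES1 and for NRARP, and SW620 was lowest for both. HES1 encodes a transcriptional repressor, and NRARP encodes a short ankyrin protein that is induced by Notch and limits it. HES1 was at 626, 645 and 639 CPM in SW48 and at 121, 115 and 110 CPM in SW620. The other 4 lines lay between these, with overlapping ranges for BT-474 (362 ± 11.7), NCI-N87 (325 ± 72.8) and BT-20 (315 ± 7.81), and with a lower mean in MKN-45 (231 ± 64.4 CPM), whose range overlaps that of NCI-N87. NRARP was at 109, 134 and 122 CPM in SW48 and at 3.57, 4.37 and 5.63 CPM in SW620, and the ranges of NCI-N87, MKN-45 and BT-474 (means of 37.7, 37.5 and 37.5 CPM) overlap. In NCI-N87 control replicate 1 both genes were low (HES1 246 CPM, NRARP 25.7 CPM), and so were they in MKN-45 control replicate 2 (HES1 157 CPM, NRARP 24.5 CPM).

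HES4, a relative of HES1, had another order: BT-474 was highest (36.8, 32.0 and 33.3 CPM), SW48 came next (22.3 ± 3.39), and the ranges of NCI-N87, SW620, MKN-45 and BT-20 overlap each with the next, with means of 15.9 down to 11 CPM. HEY1, a further repressor of this family, was low everywhere, and highest in SW620 at 2.49, 3.80 and 2.37 CPM. In SW48 it had 0, 4 and 4 counts. The 5 lines below SW620 overlap each with the next, and no order among them can be read at this depth.

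**Figure D1:**
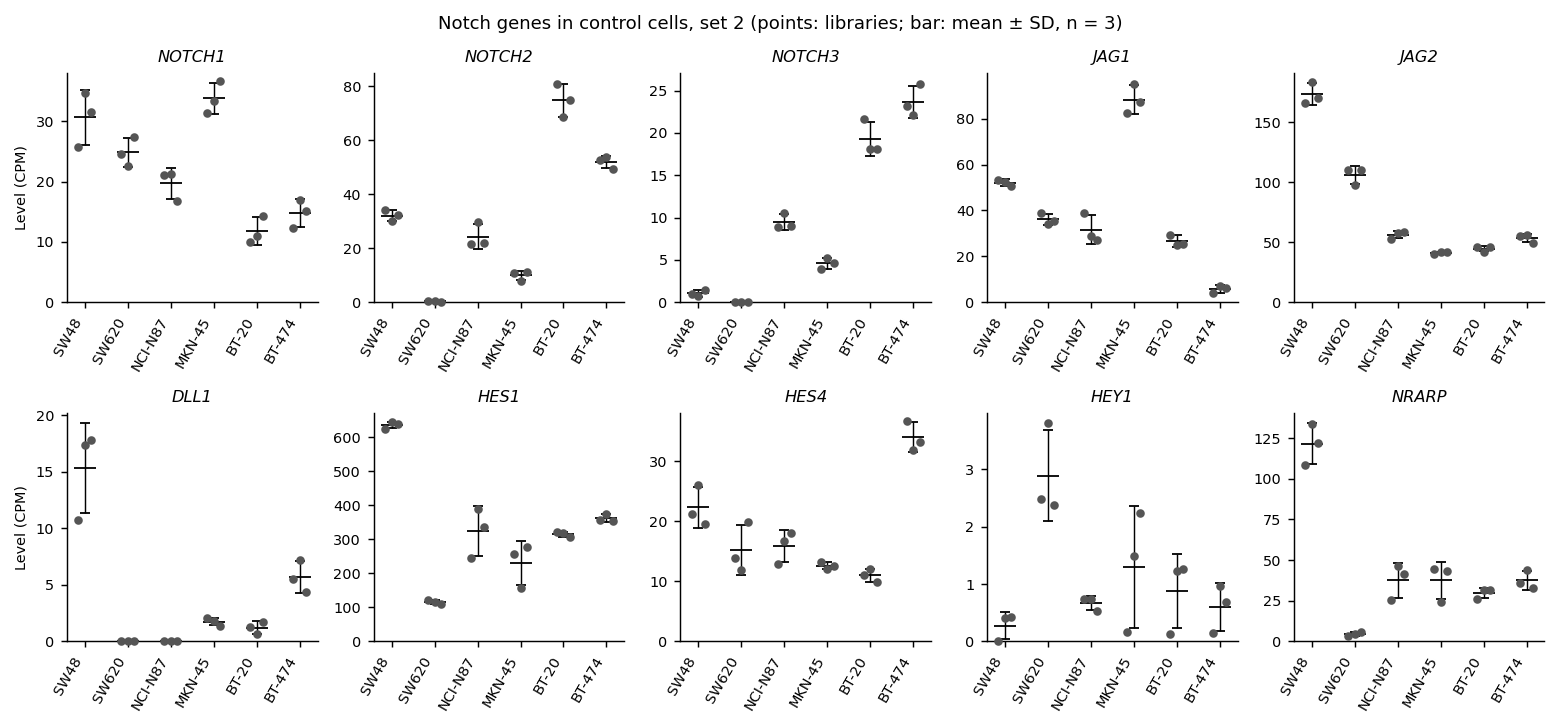
Level of each of the 10 genes (CPM, linear axes from 0, 1 panel a gene) in the control libraries of set 2, by cell line; points are libraries and bars the mean ± SD of 3. SW48 stands highest for JAG2, DLL1, HES1 and NRARP, and SW620 is at or near 0 for NOTCH2, NOTCH3 and DLL1.

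The genes whose pattern was most like each member's were sought by Pearson correlation of mean log2 CPM over the 14 groups of set 2, among 10503 genes. A small constant was added to each CPM before the log. These points share line and library preparation, so the values are a description. NOTCH2 was most like CDH1 (r = 0.987), which encodes E-cadherin, and NOTCH3 was most like TSKU (r = 0.976). JAG2 was most like GPR173 (r = 0.971), NRARP like TBC1D4 (r = 0.965) and HES1 like RETSAT (r = 0.954) and CYR61 (r = 0.925), of which the last is also known as CCN1 and encodes a matricellular protein. The nearest genes to HES4 (CD2BP2, r = 0.944), NOTCH1 (MMACHC, r = 0.919) and JAG1 (CERK, r = 0.909) were less alike. DLL1 and HEY1, with a mean over set 2 of 3.27 and 1.44 CPM, were below the floor set for this search.

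In SW48 with trametinib, JAG1 and NRARP fell in both sets. In set 2, 7 of 10 members were called at an adjusted p under 0.05, 2 higher and 5 lower, where 60.1% of all 12688 genes tested were called (30.1% higher and 30.1% lower), so the share of members is near the background. In set 1, 3 of 9 tested members were called, all lower, against 35.4% of 12235 genes (16% higher and 19.4% lower), again near the background. JAG2 fell in set 1 and rose in set 2, and HES1 fell in set 2 and did not pass the test in set 1.

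Of the ligands, JAG1 was at 45.7, 33.4 and 37.8 CPM in the SW48 controls of set 1 and at 16.8, 15.2 and 17.6 CPM with trametinib. In set 2 it was at 53.4, 52.6 and 50.6 CPM in controls and at 34.0, 34.6 and 34.4 CPM with the drug. The groups do not overlap in either set, and the log2 fold change was -1.22 (SE 0.17, adjusted p = 0.00113) in set 1 and -0.62 (SE 0.07, adjusted p = 5.85e-06) in set 2. JAG2 was at 227, 199 and 339 CPM in the controls of set 1 and at 87.8, 108 and 83.2 CPM with trametinib, a log2 fold change of -1.45 (SE 0.20, adjusted p = 0.00114). In set 2 the direction was the opposite: 166, 184 and 171 CPM in controls and 218, 242 and 240 CPM with trametinib, a log2 fold change of 0.41 (SE 0.07, adjusted p = 0.000189). Set 1 and set 2 were normalised apart, and the difference between their effects was not tested. With all 4 groups of set 1 in 1 fit, the adjusted p of JAG2 in set 1 was 0.171.

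DLL1 was at 10.8, 17.4 and 17.8 CPM in the SW48 controls of set 2 and at 6.91, 6.57 and 4.06 CPM with trametinib, and fell by 1.41 on the log2 scale (SE 0.23, adjusted p = 0.000158). In set 1 it was at 12.9, 11.2 and 10.5 CPM in controls and 6.95, 7.35 and 7.97 CPM with the drug, with no overlap, but it missed the threshold (log2 fold change -0.62, SE 0.24, adjusted p = 0.0728). DLL1 overlaps FAM120B on the opposite strand, and no source used here states whether counting used the strand, so reads of this pair may not be told apart. FAM120B was higher with trametinib in SW48 of set 2 (16.3 to 23.2 CPM on average, log2 fold change 0.48, adjusted p = 0.00111).

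Of the targets, NRARP was at 110, 110 and 109 CPM in the SW48 controls of set 1 and at 65.5, 67.8 and 66.3 CPM with trametinib, and in set 2 at 109, 134 and 122 CPM in controls and at 47.8, 43.0 and 40.8 CPM with the drug. Both pairs of groups are far apart, and NRARP fell by 0.71 on the log2 scale in set 1 (SE 0.09, adjusted p = 0.000660) and by 1.49 in set 2 (SE 0.09, adjusted p = 3.10e-08). HES1 was at 626, 645 and 639 CPM in the set 2 controls and at 386, 397 and 356 CPM with trametinib, a fall to 0.589 of the control level by the fit (log2 fold change -0.76, SE 0.06, adjusted p = 1.91e-07). In set 1 the HES1 groups overlap, with 710, 660 and 671 CPM in controls and 600, 687 and 689 CPM with the drug (log2 fold change -0.04, SE 0.08, adjusted p = 0.755). HES4 overlapped between groups in both sets and was not called (log2 fold change -0.50, SE 0.27 in set 1 and 0.18, SE 0.12 in set 2).

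HEY1 went the other way, at very low counts. The set 2 controls of SW48 had 0, 4 and 4 HEY1 counts and the trametinib libraries 28, 19 and 34, and the log2 fold change was 3.28 (SE 0.54, adjusted p = 0.000182). In set 1 HEY1 was removed by the filter on low counts and not tested, with 0, 4 and 1 counts in controls and 14, 6 and 8 with trametinib. The HEY1 groups do not overlap in either set.

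Of the receptors, NOTCH1 fell in SW48 of set 2, from 25.7, 34.8 and 31.5 CPM to 22.1, 26.3 and 18.5 CPM, though 1 treated library lies above the lowest control (log2 fold change -0.48, SE 0.14, adjusted p = 0.00868). In set 1 it was at 25.5, 21.7 and 21.9 CPM in controls and at 14.6, 18.8 and 13.9 CPM with trametinib (log2 fold change -0.54, SE 0.19, adjusted p = 0.0576), and it passed without trametinib replicate 2. NOTCH2 was not called in either set (log2 fold change -0.03, SE 0.14 and 0.12, SE 0.10), and nor was NOTCH3 (0.33, SE 0.22 and 0.71, SE 0.37). The control level of the receptors differed between the sets: NOTCH2 was at 84.1, 77.8 and 61.0 CPM in set 1 against 34.1, 29.9 and 32.2 CPM in set 2, and NOTCH3 at 14.7, 18.7 and 14.8 CPM against 0.960, 0.712 and 1.47 CPM. The BT-20 genes, named for a line in which both receptors are high, were at 12.1%, 2.70% and 1.18% of the BT-20 level in these set 1 controls, in the same order. The part of such reads in the difference was not tested.

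Other measures moved with the drug in SW48. DUSP6, a phosphatase induced by ERK signalling and a readout of MEK inhibition, fell by 3.65 on the log2 scale in set 1 and by 2.50 in set 2, and ETV5, an ERK-induced transcription factor, also fell (log2 fold change -2.98 and -2.53). Of the other ERK-induced readouts, ETV4 and SPRY4 fell in set 2 (-2.31 and -1.84) and were not called in set 1 (-0.51, adjusted p = 0.228 and -0.19, adjusted p = 0.854). Among the G1/S genes, CDC6 fell in both sets (-1.05 and -0.81) and MCM5 rose in both (0.96 and 0.18). E2F1 rose in set 1 (0.62) and fell in set 2 (-0.28). MCM2 rose in set 1 (0.36) and was not called in set 2 (-0.05). The share of counts from mitochondrial ribosomal RNA was 0.970% to 1.60% in the set 2 controls and 2.25% to 3.33% with trametinib. In set 1, 29% of the reads of the SW48 controls and 44.7% of those with trametinib were listed as not aligned, on average. DCN, a stromal marker, was at 6.41 CPM on average in the SW48 controls of set 2, at 26.5 CPM with trametinib and at 11.1 CPM with palbociclib, while CD3E was at 0 in all of these libraries. The part of any of these in the changes of the Notch genes was not tested. Without SW48 control replicate 1 of set 1 (BT-20 genes at 12.1%), the log2 fold change of JAG1 was -1.10, of JAG2 -1.53 and of NRARP -0.72, all still called. Without trametinib replicate 1 (BT-20 genes at 14%) it was -1.24 for JAG1, -1.41 for JAG2 and -0.70 for NRARP, all called. Without trametinib replicate 2 (MKN-45 genes at 21.5%) it was -1.17 for JAG1, -1.57 for JAG2 and -0.73 for NRARP, again all called.

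With palbociclib in SW48, 4 of 10 members were called, 1 higher and 3 lower, against 57.5% of 12690 genes (28.3% higher and 29.2% lower). DLL1 was at 5.50, 4.43 and 6.96 CPM with palbociclib, below every control, and fell by 1.45 (log2, SE 0.22, adjusted p = 5.43e-05). NRARP was at 63.8, 61.1 and 58.9 CPM, likewise below every control, and fell by 0.99 (log2, SE 0.08, adjusted p = 1.96e-07). HES1 was at 557, 590 and 565 CPM against at least 626 CPM in controls, a small fall (log2 fold change -0.16, SE 0.06, adjusted p = 0.0249) that missed the threshold without palbociclib replicate 1 (adjusted p = 0.0668), without palbociclib replicate 3 (0.0536) and with all groups of set 2 in 1 fit (0.431). HEY1 had 25, 15 and 10 counts against 0, 4 and 4, a log2 fold change of 2.67 (SE 0.64, adjusted p = 0.00256). JAG1 (51.7, 58.1 and 56.7 CPM) and JAG2 (170, 162 and 175 CPM) overlapped with the controls and were not called (log2 fold change 0.09, SE 0.07 and -0.04, SE 0.07). FAM120B was higher here too (log2 fold change 0.50, adjusted p = 0.00195), and mitochondrial ribosomal RNA took 2.93% to 4.52% of counts; its part was not tested. Among the G1/S genes, CDC6, MCM2 and E2F1 fell (log2 fold change -1.10, -0.58 and -0.52) and MCM5 did not pass the test (0.06, SE 0.08). The ERK-induced readouts moved with palbociclib too: DUSP6, ETV5 and ETV4 fell (-0.76, -1.01 and -0.68) and SPRY4 rose (0.45), all called.

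Set directly against palbociclib in SW48, trametinib gave lower JAG1, HES1 and NRARP and higher JAG2. These 4 of 10 members were called, against 41.9% of 12807 genes (21% higher and 20.9% lower). The trametinib minus palbociclib difference was -0.71 (log2, SE 0.08, adjusted p = 1.00e-05) for JAG1 and 0.45 (SE 0.06, adjusted p = 0.000103) for JAG2. It was -0.61 (SE 0.06, adjusted p = 2.83e-06) for HES1 and -0.50 (SE 0.08, adjusted p = 0.000205) for NRARP. No difference was called for DLL1 (0.04, SE 0.25) or HEY1 (0.62, SE 0.37), and the SE of DLL1 allows a difference in either direction. Doses and times of the drugs are not given in the labels.

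**Figure D2:**
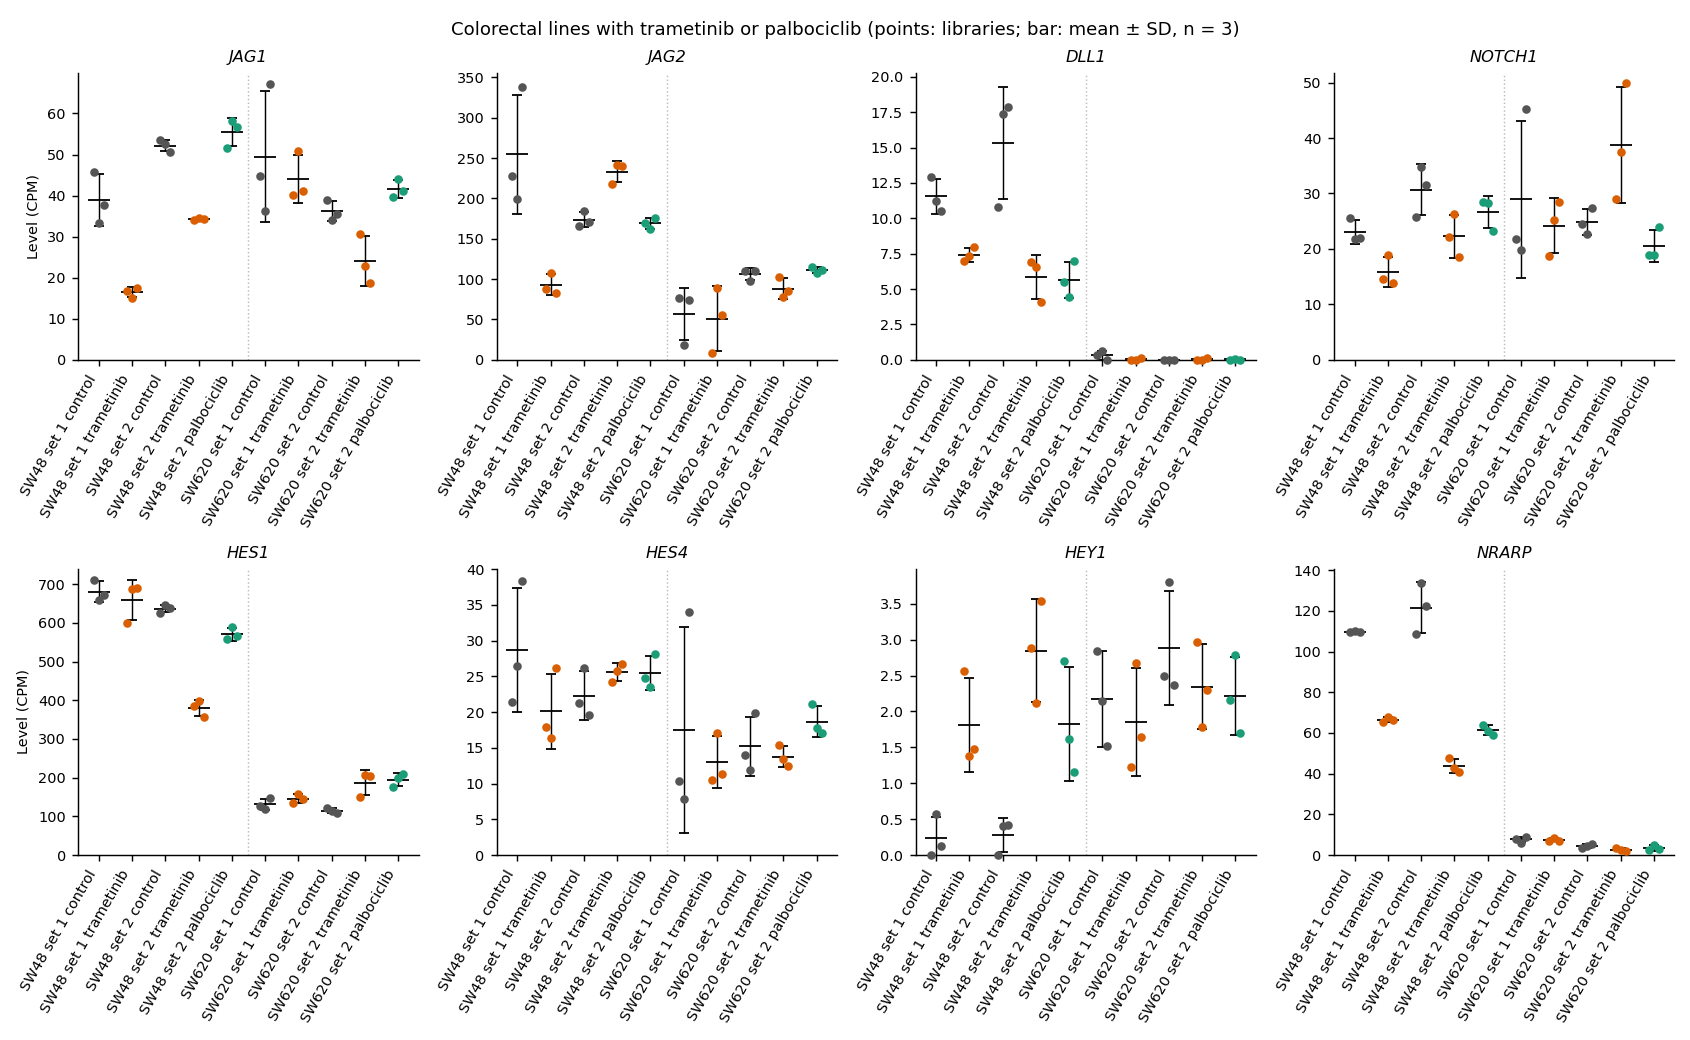
Level of 8 of the genes (CPM, linear axes from 0, 1 panel a gene) in the colorectal lines of both sets, by line, set and drug; points are libraries (grey control, orange trametinib, green palbociclib) and bars the mean ± SD of 3. In SW48 the treated NRARP libraries lie at 40.8 to 67.8 CPM, below all control libraries, while JAG2 is below its controls with trametinib in set 1 and above them in set 2.

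In SW620, trametinib gave no called member. With trametinib none of the tested members was called by edgeR in set 1 (8 tested) or set 2 (7 tested), and none of the 13081 and 12919 genes tested was, a background of 0% in both. An unadjusted p under 0.05 was reached by 366 genes and 0 members in set 1, and by 2204 genes and 5 members in set 2. DESeq2 called 14 genes and 0 members in set 1, and 208 genes in set 2 with HES1 among them. HES1 in set 2 was at 121, 115 and 110 CPM in controls and at 150, 206 and 206 CPM with trametinib, without overlap (log2 fold change 0.69, SE 0.13, adjusted p = 0.218). NOTCH1 was at 24.6, 22.7 and 27.4 CPM in controls and at 29, 37.4 and 49.9 CPM with the drug (0.62, SE 0.19, adjusted p = 0.218), and JAG1 at 38.8, 34.1 and 35.6 CPM against 30.7, 22.8 and 18.7 CPM (-0.60, SE 0.16, adjusted p = 0.218). NRARP was at 3.57, 4.37 and 5.63 CPM in controls and at 3.50, 2.53 and 1.89 CPM with trametinib, also without overlap (-0.79, SE 0.30, adjusted p = 0.250), and JAG2 at 110, 97.6 and 110 CPM against 102, 77.7 and 84.8 CPM, with overlap (-0.28, SE 0.12, adjusted p = 0.291). Trametinib replicate 1 is the treated library nearest to the controls for all 5 of these genes. Without this library 882 genes were called, and HES1 (0.84, adjusted p = 0.00545), NOTCH1 (0.81, adjusted p = 0.0245) and JAG1 (-0.80, adjusted p = 0.0134) were among them; the 3 were also called with no filter on low counts and with all groups of set 2 in 1 fit.

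In set 1 the SW620 libraries were further apart. JAG2 was at 76.2, 18.9 and 74.4 CPM in controls and at 8.41, 89.2 and 55.9 CPM with trametinib, so that the treated range contains that of the controls (log2 fold change -0.18, SE 0.83). HES4 was at 10.4, 7.88 and 34.0 CPM in controls, where replicate 3 is the high library. Among these controls the summed level of the MKN-45 genes was also highest in replicate 3, but their median gene was at 0 there. HES4 itself was at 12.6 CPM on average in the MKN-45 controls of the other set, below the 34.0 CPM of this library. The part of such reads in its HES4 level was not tested. HES1 (128, 120 and 147 CPM against 135, 158 and 146 CPM) and NRARP (8.11, 6.04 and 8.86 CPM against 6.90, 8.33 and 7.14 CPM) overlapped between groups. DUSP6 was not called with trametinib in SW620 in either set (log2 fold change -0.49, SE 0.30 and -0.29, SE 0.21). Nor was any other of the ERK-induced readouts and G1/S genes. In set 2 the largest changes among them were those of ETV4 (-0.62, SE 0.26) and MCM5 (0.36, SE 0.12).

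Palbociclib in SW620 raised HES1. It was at 175, 200 and 210 CPM against 121, 115 and 110 CPM in controls (log2 fold change 0.81, SE 0.09, adjusted p = 7.97e-05), and was the only one of 7 tested members called, where 35% of 13068 genes were (17.6% higher and 17.4% lower). JAG1 was at 39.6, 44.0 and 41.1 CPM, above all controls, and missed the threshold (0.25, SE 0.10, adjusted p = 0.0773). HES4 (0.33, SE 0.19) passed only without control replicate 3 (0.58, adjusted p = 0.0135), which brought the count of members from 1 to 2. NOTCH3 had 20, 2 and 0 counts with palbociclib against 0 in all controls, so that 1 library held nearly all of them. Of the G1/S genes, CDC6, MCM2 and E2F1 were not called (-0.10, -0.16 and -0.17) and MCM5 was higher (0.50). Of the ERK-induced readouts, DUSP6 and SPRY4 were higher (0.39 and 0.56), and ETV4 and ETV5 were not called (-0.28 and -0.09). Trametinib minus palbociclib in SW620 was called for 4 of 7 members against 32.7% of 13232 genes (15.9% higher and 16.7% lower). NOTCH1 was higher with trametinib (0.87, SE 0.19, adjusted p = 0.00664). JAG1 was lower (-0.83, SE 0.16, adjusted p = 0.00313), as were JAG2 (-0.38, SE 0.11, adjusted p = 0.0243) and HES4 (-0.48, SE 0.14, adjusted p = 0.0248). HES1 missed the threshold for a difference between the drugs (-0.10, SE 0.13, adjusted p = 0.601). JAG2 and HES4 each lost the call without any 1 of 4 libraries (JAG2: palbociclib replicates 1, 2 and 3 and trametinib replicate 2, adjusted p = 0.0603 to 0.103; HES4: palbociclib replicates 1 and 2 and trametinib replicates 2 and 3, adjusted p = 0.0532 to 0.100).

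The drug effects of SW620 and SW48 differed for part of the members when the difference itself was tested. For trametinib in set 2, 4 of 10 members were called against 28.2% of 14027 genes (15.3% higher and 12.9% lower): NOTCH1 and HES1 with a higher, JAG2 and HEY1 with a lower log2 fold change in SW620 than in SW48. The largest of these 4 differences was that of HEY1, which had 19 to 33 counts in the control and trametinib libraries of SW620 (difference -3.56, SE 0.68, adjusted p = 0.00141), and HES1 had the smallest adjusted p among them (1.47, SE 0.15, adjusted p = 1.10e-05). For JAG1, with -0.62 in SW48 and -0.60 in SW620, no difference was called (0.04, SE 0.18, adjusted p = 0.902). For palbociclib, 2 of 10 were called against 25.7% of 14098 genes (14.6% higher and 11.2% lower), HES1 (0.98, SE 0.10, adjusted p = 5.42e-06) and HEY1 (-2.98, SE 0.79, adjusted p = 0.0106). For trametinib in set 1 none of 10 was called by edgeR against 6.73% of 14525 genes (3.95% higher and 2.78% lower); 3 had an unadjusted p under 0.05, and DESeq2 called HEY1 alone (-3.21, adjusted p = 0.0331). Without SW620 control replicate 3 of set 1, JAG1 (1.32, adjusted p = 0.00420) and NRARP (0.77, adjusted p = 0.0188) were called there.

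**Figure D3:**
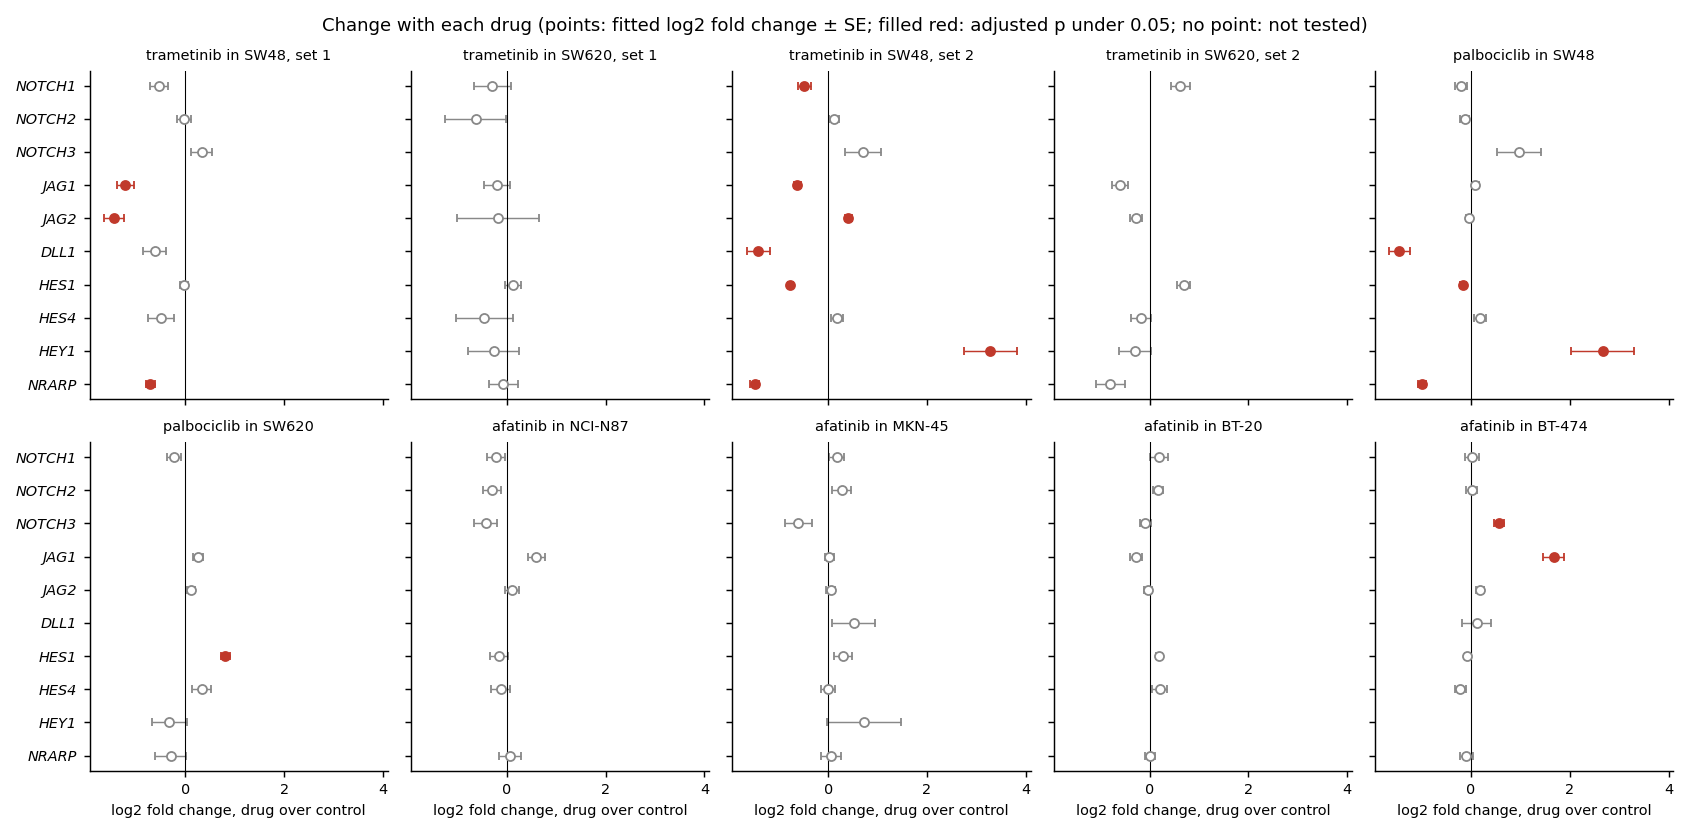
Fitted log2 fold change ± SE (x axis, drug over control) of the 10 genes in the 10 drug comparisons, 1 panel a comparison; filled red points have an adjusted p under 0.05, open grey points do not, and a gene without a point was not tested. The red points stand in SW48 with both drugs, in SW620 with palbociclib (HES1) and in BT-474 with afatinib (NOTCH3 and JAG1).

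With afatinib in BT-474, a line with very high ERBB2, 2 of 9 tested members were called. The ligand JAG1 and the receptor NOTCH3 rose, where 42.7% of 12768 genes were called (20.9% higher and 21.8% lower). The share of members is thus not above the background. JAG1 was at 3.93, 6.92 and 6.30 CPM in controls and at 17.5, 22.0 and 15.1 CPM with afatinib. Every treated library is above every control, and the rise was 3.19-fold by the fit (log2 fold change 1.67, SE 0.21, adjusted p = 6.04e-05), and 1.46 to 1.83 on the log2 scale when any 1 library was left out. NOTCH3 was at 23.1, 22.1 and 25.8 CPM in controls and at 34.7, 34.5 and 35.3 CPM with afatinib (log2 fold change 0.57, SE 0.09, adjusted p = 0.000435). With all groups of set 2 in 1 fit, NOTCH3 missed the threshold (0.56, adjusted p = 0.110). Of the targets, HES1 was at 357, 375 and 354 CPM in controls and 339, 339 and 346 CPM with the drug (-0.07, SE 0.06, adjusted p = 0.316), and NRARP at 35.9, 43.9 and 32.6 CPM against 31.8, 40.3 and 32.2 CPM (-0.10, SE 0.13, adjusted p = 0.574). HES4 had lower values in each treated library, 24.5, 30.4 and 31.9 CPM against 36.8, 32.0 and 33.3 CPM, and was not called (-0.22, SE 0.11, adjusted p = 0.127). DUSP6 and MCM2 fell here by 1.68 and 1.53 on the log2 scale.

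In the other afatinib lines no member was called. In BT-20, 0 of 8 members and 0.585% of 12810 genes were called (0.273% higher and 0.312% lower); 2 members had an unadjusted p under 0.05 and DESeq2 called none. HES1 was at 321, 318 and 306 CPM in controls and 327, 350 and 388 CPM with the drug (0.19, SE 0.06, adjusted p = 0.223), and JAG1 at 29.5, 24.8 and 25.6 CPM against 20.5, 24.7 and 19.9 CPM (-0.27, SE 0.12, adjusted p = 0.366). Of the ERK-induced readouts and G1/S genes, ETV5 alone was called in BT-20 (edgeR quasi-likelihood test, -0.52, SE 0.08, adjusted p = 0.0154). In MKN-45, 0 of 10 members and none of 12358 genes were called (0%), with 664 genes and 0 members at an unadjusted p under 0.05 and none by DESeq2. JAG1, at its highest in this line, was at 82.6, 95.3 and 87.3 CPM in controls and at 88.9, 87 and 91.7 CPM with afatinib (0.03, SE 0.08). HES1 was at 257, 157 and 277 CPM against 271, 285 and 295 CPM (0.30, SE 0.18), and the mean of its controls rests on replicate 2.

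In NCI-N87, the other line with very high ERBB2, 0 of 8 members and none of 12472 genes were called by edgeR (0%). There were 1523 genes and 1 member, JAG1, at an unadjusted p under 0.05, and DESeq2 called 37 genes and no member. JAG1 was at 38.9, 28.7 and 27.2 CPM in controls and at 46.6, 49.2 and 45.6 CPM with afatinib, without overlap (log2 fold change 0.59, SE 0.17, adjusted p = 0.372). Without control replicate 1, which was the highest control for JAG1 and the lowest for HES1 and NRARP, 2108 genes were called and JAG1 with them (0.76, adjusted p = 0.00526). JAG1 was also called with all groups of set 2 in 1 fit (0.59, adjusted p = 0.00750). HES1 was at 246, 390 and 338 CPM in controls and 301, 320 and 239 CPM with the drug, and the groups overlap.

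The difference of the afatinib effect between the breast lines was called for 3 of 9 members, against 23.8% of 14019 genes (10.2% higher and 13.6% lower): BT-474 minus BT-20 was 1.93 for JAG1 (SE 0.25, adjusted p = 2.95e-05), 0.64 for NOTCH3 (SE 0.15, adjusted p = 0.00506) and -0.28 for HES1 (SE 0.09, adjusted p = 0.0272). The HES1 difference lost its call without any 1 of 8 libraries (adjusted p = 0.0503 to 0.0970), which were BT-20 control replicates 2 and 3, BT-20 afatinib replicate 3, BT-474 control replicates 1, 2 and 3 and BT-474 afatinib replicates 1 and 2. With all groups of set 2 in 1 fit, the differences of NOTCH3 (0.65, adjusted p = 0.280) and HES1 (-0.27, adjusted p = 0.430) were not called. Between the stomach lines, NCI-N87 minus MKN-45, none of 10 members was called against 0.0145% of 13791 genes (0.00725% in each direction), with 1 member, JAG1 (0.59, SE 0.19, adjusted p = 0.359), at an unadjusted p under 0.05 and none by DESeq2. Without NCI-N87 control replicate 1, JAG1 was called there (0.76, adjusted p = 0.00494).

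**Figure D4:**
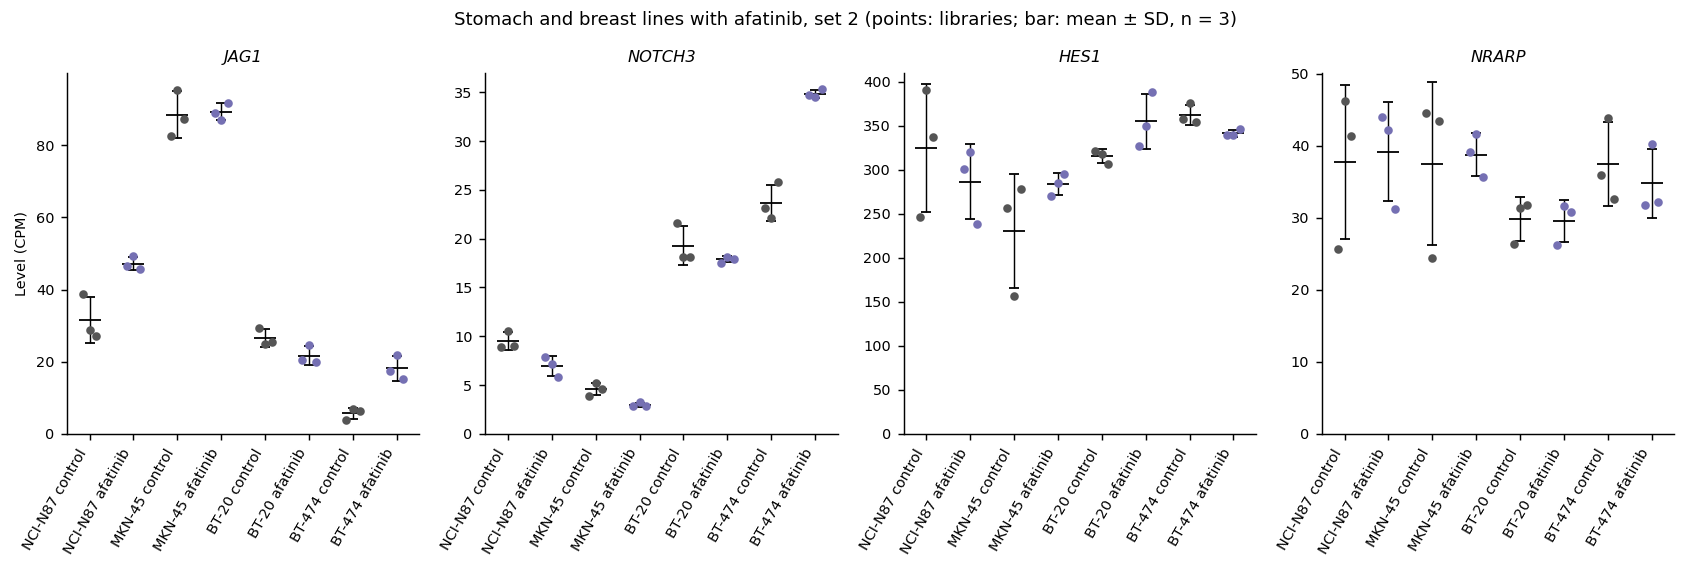
Level (CPM, linear axes from 0) of JAG1, NOTCH3, HES1 and NRARP in the stomach and breast lines, by line and drug (grey control, violet afatinib); points are libraries and bars the mean ± SD of 3. In BT-474 the afatinib libraries of JAG1 (15.1 to 22.0 CPM) and NOTCH3 (34.5 to 35.3 CPM) lie above all controls of that line, and in NCI-N87 and MKN-45 1 control library each is low in HES1 and NRARP.

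A further 69 genes of the pathway, which process, carry or read the Notch signal, were counted in the same comparisons. In SW48 with trametinib in set 2, 24 of 53 tested rose and 19 fell, where 30.1% of all genes rose and 30.1% fell; the shares of the lists below are read against the same values. Of the 9 cleavage genes 7 rose and 2 fell, with a median log2 fold change of 0.39 against 0.01 over all genes. ADAM10, the protease that makes the first activating cut, was at 15.8 ± 2.55 CPM in controls (SD, n = 3) and rose to 69.4 ± 12.5 CPM; edgeR's quasi-likelihood test gave a log2 fold change of 2.12 (SE 0.14, adjusted p = 5.25e-08), while ADAM17 fell by 0.75. Of the 12 corepressors 5 rose and 6 fell. Among those that rose, TLE2 and TLE4, Groucho-family partners of HES proteins, rose by 2.14 and 2.10 on the log2 scale. Of the receptors and ligands outside the 10 members, 2 of 7 were tested and DLL4 fell by 1.84. RBPJ rose by 0.26. In set 1, 10 of 48 rose and 8 fell, near the 16% and 19.4% of all genes. Of the 9 cleavage genes only 1 rose there and 1 fell, with a median log2 fold change of 0.21 against 0.01 over all genes. NEURL1B, a ubiquitin ligase for ligand uptake, rose by 1.32 in set 1 and KAT2B by 1.95, TLE4 rose by 1.28, and ADAM17 fell by 1.42.

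With palbociclib in SW48, 16 of 52 rose and 17 fell, near the 28.3% and 29.2% of all genes. Of the 12 corepressors 5 rose and 6 fell, with a median log2 fold change of -0.23. Among those that rose, TLE4 rose by 2.08 and TLE2 by 1.75. Of the 9 cleavage genes 6 rose and 2 fell (ADAM10 by 0.72 up and ADAM17 by 0.81 down), and of the 8 nuclear complex genes 1 rose and 5 fell, with RBPJ at -0.40. HES2 rose by 1.41. ADAM10 was higher with trametinib than with palbociclib (difference 1.40, SE 0.12, adjusted p = 9.32e-07). Both drugs were compared with the same 3 control libraries, so their changes share them. For TLE3, of the same family as TLE2 and TLE4, the log2 fold change in set 2 was higher in SW620 than in SW48. The difference was 1.40 for trametinib and 1.44 for palbociclib.

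With palbociclib in SW620, 10 of 54 rose and 13 fell, where 17.6% and 17.4% of all genes did: DLL4 fell by 1.04, the corepressor NCOR1 by 0.91, NEURL1B by 0.73 and the γ-secretase subunit PSEN2 by 0.70. With trametinib in SW620 none of 55 (set 1) or 52 (set 2) was called. With afatinib in BT-474, 13 of 52 rose and 9 fell, near the 20.9% and 21.8% of all genes. Of the 8 nuclear complex genes 2 rose and 3 fell, with a median log2 fold change of -0.03. MAML2, a Mastermind coactivator, was at 1.88 ± 0.810 CPM in controls and rose to 10.1 ± 1.35 CPM, by 2.43 on the log2 scale (SE 0.29, adjusted p = 3.74e-05). MAML3 rose by 0.91 and the γ-secretase subunit APH1B by 1.28, and NEURL1B fell by 1.58. Of 10 genes for turnover and inhibition, 9 were tested, and 4 of these rose and none fell (DTX3 by 0.61 and DTX2 by 0.50 among them). In BT-20 only EP300 of 54 was called (-0.67, adjusted p = 0.0422), and none of 48 in NCI-N87 or 53 in MKN-45 was.

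The members lie on 8 chromosomes (GENCODE release 29, GRCh38). NOTCH1 (ENSG00000148400.10, chr9:136494433-136545786) and NRARP (ENSG00000198435.3, chr9:137300482-137302251) are on chromosome 9, and NOTCH2 (chr1:119911553-120069626) and HES4 (chr1:998962-1000172) on chromosome 1. NOTCH3 is at chr19:15159038-15200981, JAG1 at chr20:10637684-10673999, JAG2 at chr14:105140981-105168824 and DLL1 at chr6:170282206-170306565. HES1 is at chr3:194136145-194138732 on the plus strand, and the others of these lie on the minus strand, as does HEY1 on chromosome 8. NOTCH1, NOTCH3, JAG1 and JAG2 each hold a microRNA gene on their own strand. The build of this annotation is the one the submitters' processing notes name, hg38, but the annotation they counted with is not given in the sources used here.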

How the data were processed

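Counts of 3′ reads (Lexogen QuantSeq) per gene were deposited by the authors as raw whole numbers without normalisation, per the labels and checked on the values. Per the submitters' processing notes, the authors used Trimmomatic, STAR, featureCounts and build hg38; no source used here gives versions, strand setting or annotation. The set 1 table lists 39.7% to 73.8% of its reads under 5 lines that name no gene (not aligned, ambiguous and the like); these stayed out of every total and test. The second table repeats the 12 set 1 libraries with identical values, used once.

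The tests on counts used edgeR 4.0.16 (R 4.3.3), and a comparison was fitted on its own groups of 3 alone: filterByExpr (minimum count 10, minimum total 15), TMM, quasi-likelihood test, two-sided, Benjamini-Hochberg over all genes tested, threshold 0.05. SEs come from the test statistic. There were 10 drug comparisons, 5 differences between lines and 2 between drugs. The fit was tested on simulated data. The members and gene lists were chosen with earlier results of these data known. The naming rule took all 10 members, up to 4 called genes a comparison among 69 other pathway genes (largest change, mean log2 CPM of at least 2), the 2 genes most like each member and 8 readouts of the drugs. The text gives a part of these. For most members only the nearest gene is given, and most pathway genes from the differences between lines and drugs are left out. Other pathway genes named beside a count, and FAM120B and NOTCH2NL, were chosen after their values were seen. A gene that this rule names is not reported here. Alternatives were DESeq2 1.42.0 or its size factors, no filter, a replicate block, all groups in 1 fit and each library left out.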

Additional observations from a re-analysis of the deposited data

Results flagged for a closer look

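A drug effect that differed between 2 lines of the same set, by a test of the difference, was found for 9 of the results. These were 4 of 10 members for trametinib in set 2, 2 of 10 for palbociclib and 3 of 9 for BT-474 minus BT-20. Of all genes tested, 28.2%, 25.7% and 23.8% were called in the same differences. Values are log2, first line minus second. For trametinib in set 2 (SW620 minus SW48), NOTCH1 differed by 1.12, with an effect of 0.62 in SW620 and -0.48 in SW48. HES1 differed by 1.47 (0.69 and -0.76). JAG2 differed by -0.67 (-0.28 and 0.41). HEY1 differed by -3.56 (-0.30 and 3.28). None of the SW620 effects named here passed its own test. For palbociclib, HES1 differed by 0.98, with 0.81 in SW620 and -0.16 in SW48, both called. The HES1 call in SW48 was lost in 3 of 11 alternatives. HEY1 differed by -2.98 (-0.33 and 2.67). For both drugs the HEY1 result rests on SW48 controls with 0 to 4 counts. For afatinib (BT-474 minus BT-20), JAG1 differed by 1.93 (1.67 and -0.27), NOTCH3 by 0.64 (0.57 and -0.08) and HES1 by -0.28 (-0.07 and 0.19). This HES1 difference lost its call in 9 of 17 alternatives, and the NOTCH3 difference in 1 of 17.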

How the results depend on the processing

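Of 34 called results on the members, 27 kept their call and direction in all alternatives run, 7 lost it in at least 1, and none turned its direction; of 118 that were not called, 19 gained a call in at least 1. Counts that moved are given as all genes, with members after them where they moved too. With no filter on low counts, trametinib in SW620 of set 2 gave 398 genes and 3 members, afatinib gave 197 genes in NCI-N87 and 497 in BT-20, the NCI-N87 minus MKN-45 difference gave 140, and members called were 2 for palbociclib in SW620 and 4 for its difference between lines. DESeq2 gave 14 genes for trametinib in SW620 of set 1 and 208 with 1 member in set 2, 37 in NCI-N87, 163 in BT-20, 36 for the difference between the stomach lines, and 1830 with 1 member for the trametinib difference of set 1. All groups of a set in 1 fit gave 2227 genes for trametinib in SW48 of set 1 (4331 in the main fit of 2 groups), 2 in SW620 of set 1, 632 with 3 members in SW620 of set 2, 1427 with 1 member in NCI-N87, 7 in MKN-45, 12 in BT-20, 437 for NCI-N87 minus MKN-45 and 1943 with 1 member for BT-474 minus BT-20; members were 2 for palbociclib in SW620 and 1 for afatinib in BT-474. Leaving out 1 library gave 0 to 882 genes and 0 to 3 members for trametinib in SW620 of set 2, 0 to 2108 and 0 to 1 in NCI-N87, 0 to 1 gene in MKN-45, 6 to 96 in BT-20, 493 to 2439 and 0 to 2 for the trametinib difference of set 1, and 0 to 1315 and 0 to 1 for NCI-N87 minus MKN-45. Members were 1 to 2 for palbociclib in SW620 and 2 to 4 for trametinib minus palbociclib there. The cause was not tested for any of these.

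No comparison had all 3 correlations between the deviations of same-numbered libraries above 0.1. Some pairs matched best by number, as did pairs 1 and 3 of trametinib in SW620 of set 1 (r = 0.104 and 0.0944), while pair 2 did not (-0.0202). Pairing by number was not shown, and correlations this weak cannot decide it. With the replicate block, afatinib in BT-20 gave 5 genes in place of 75 and NCI-N87 minus MKN-45 gave 0 in place of 2; NOTCH1 gained a call for trametinib minus palbociclib in SW48 (-0.28, adjusted p = 0.0452), and no other member call changed. Depth limits HEY1, with at most 34 counts in a library, NOTCH2 in SW620 of set 2, NOTCH3 and DLL1 in SW620, and DLL1 in NCI-N87.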
